A study of Mus musculus with 4 samples.

Results

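Among viable cells dissociated from mouse lung tumors, 319 of 19892 (1.60%, 95% interval 1.43 to 1.79) carried at least 4 unique molecular identifiers (UMIs, counts of single captured transcripts) of the genes Mki67, Top2a, Birc5 and Ube2c summed. These cells, chosen by the measured UMIs of those 4 genes, are called cycling here. Cells had to show at least 200 genes and at most 13.4% of their UMIs in mitochondrial genes. They were set against the 18709 cells in which the 4 genes summed to 0, while 864 cells with a sum of 1 to 3 were placed in neither group. A lineage was given by raw marker UMIs: Cd3d, Cd3e and Cd3g for Cd3 cells, Cd79a for Cd79a cells, Marco, Fabp1 and Ctsk for Marco/Fabp1/Ctsk cells, C1qa, C1qb and C1qc for C1q cells, Epcam and Cldn18 for Epcam/Cldn18 cells, and Cdh5 and Cldn5 for Cdh5/Cldn5 cells. A cell took the list with at least 2 UMIs and at least 2 times the UMIs of the next list.

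The tumors were started by Lenti-Cre given into the trachea, grew for 16 weeks and were harvested from 4 female mice, all of which had received tamoxifen in doses of 4 mg for 2 weeks. All 4 were Lkb1XTR/XTR, with an Lkb1 (Stk11) allele in which Cre turns on a gene trap that stops the gene and expresses GFP. At the Rosa26 locus the 2 Non-Restored mice had LSL-tdTomato, a reporter of Cre-recombined cells, and the 2 Restored mice had LSL-tdTomato with FLPo-ERT2, the tamoxifen-activated recombinase that removes the trap. Tumors were microdissected and dissociated, and all viable cells negative for DAPI were sorted. The labels give no age for these mice, and the study's methods give only an age range at tumor initiation for all its cohorts of lung tumor mice. Which promoter drove Cre is not stated for them.

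All 4 mice were deposited as 1 matrix of 20351 cells and 31055 features, with 58624795 UMIs in total. No file used here gives the mouse of a cell or its barcode, so Restored and Non-Restored mice were not compared and barcodes shared between libraries were not counted. The matrix counts as 1 sample. Every interval given here is an exact 95% interval for counting error only, and no value has a replicate behind it. Differences between cell classes cannot be told apart from unequal contributions of the 4 mice.

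A dividing cell copies its DNA in S phase and separates the copies in mitosis. Replication enzymes and histones are made mostly in S phase, under E2F transcription factors. Cyclin B, the spindle kinases and the 4 genes used here build up in G2 phase and mitosis, under the MuvB complexes with B-Myb and FoxM1. Mki67 coats mitotic chromosomes, Top2a untangles DNA, Birc5 (survivin) belongs to the complex that corrects spindle attachment, and Ube2c is an enzyme of the anaphase-promoting complex that marks cyclin B for destruction.

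The promoters of the 4 genes are shown because they define the cells described here. Each run of 300 bases covers 250 bases before to 50 after the start site in RefSeq on GRCm38.p6, on the gene's own strand. Capitals mark TTTGAA or TTTAAA, the letters known as CHR elements, and CCAAT, on either strand.
Mki67: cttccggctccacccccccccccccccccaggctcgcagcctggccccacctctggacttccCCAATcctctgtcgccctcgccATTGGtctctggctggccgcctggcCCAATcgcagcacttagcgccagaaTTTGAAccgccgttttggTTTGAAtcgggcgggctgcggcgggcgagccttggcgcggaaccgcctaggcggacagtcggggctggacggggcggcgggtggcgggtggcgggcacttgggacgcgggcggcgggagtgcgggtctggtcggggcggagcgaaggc
Top2a: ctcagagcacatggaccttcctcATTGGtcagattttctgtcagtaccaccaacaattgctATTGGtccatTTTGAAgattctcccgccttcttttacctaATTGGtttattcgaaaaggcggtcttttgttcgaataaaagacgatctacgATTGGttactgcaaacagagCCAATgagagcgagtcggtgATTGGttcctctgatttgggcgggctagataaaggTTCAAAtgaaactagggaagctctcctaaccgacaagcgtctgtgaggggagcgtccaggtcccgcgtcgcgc
Birc5: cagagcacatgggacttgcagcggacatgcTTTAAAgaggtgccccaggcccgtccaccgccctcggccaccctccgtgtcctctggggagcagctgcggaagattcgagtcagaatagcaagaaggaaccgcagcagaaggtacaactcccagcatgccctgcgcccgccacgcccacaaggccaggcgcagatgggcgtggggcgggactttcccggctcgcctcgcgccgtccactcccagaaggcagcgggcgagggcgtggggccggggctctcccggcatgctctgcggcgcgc
Ube2c: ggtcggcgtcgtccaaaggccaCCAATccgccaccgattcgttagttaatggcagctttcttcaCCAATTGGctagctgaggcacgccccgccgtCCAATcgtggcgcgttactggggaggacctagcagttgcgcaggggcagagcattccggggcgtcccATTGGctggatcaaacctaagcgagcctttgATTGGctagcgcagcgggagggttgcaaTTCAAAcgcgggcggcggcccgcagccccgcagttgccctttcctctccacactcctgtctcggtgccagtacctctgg
The Mki67 run lies at chr7:135716330-135716629 on the minus strand and holds TTTGAA 2 times, beginning at -116 and -98 from the start site, and CCAAT 3 times. For Top2a, at chr11:99024140-99024439 on the minus strand, TTTGAA occurred at -179 and -23 and CCAAT 6 times. In Birc5, at chr11:117848987-117849286 on the plus strand, TTTAAA occurred once, at -220, and CCAAT was not in the window. Ube2c, at chr2:164769679-164769978 on the plus strand, held TTTGAA at -29 and CCAAT 6 times, 2 of which overlap. TTTGAA was present in 18.1% of 27018 mouse promoters of the same length and TTTAAA in 13.2%. Of 29 matched promoters of the 35 genes on the mitosis list used here, 21 held TTTGAA (72.4%), against 3 of 24 matched promoters of the 30 genes on the replication list (12.5%). CCAAT was present in 37.9% of all promoters, in 22 of the 29 mitosis promoters (75.9%) and in 16 of the 24 replication promoters (66.7%). These are matches of letters only.

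The rule's own genes varied widely among the 319 cells. Their sum had a median of 10 UMIs, quartiles of 6 and 18 and a maximum of 47. Mki67 was found in 299 cells (93.7%), Birc5 in 272 (85.3%), Top2a in 247 (77.4%) and Ube2c in 182 (57.1%). All 4 genes were detected in 125 cells, 3 in 118, 2 in 70 and a single gene in 6. Of all Mki67 UMIs in the kept cells, 71.5% lay in these cells, and for Top2a, Ube2c and Birc5 the shares were 80.3%, 85.0% and 85.6%. Just inside the threshold, the 37 cells with a sum of 4 had the mitosis list at 1834 CPM (UMIs summed over a group of cells and scaled so that all features add up to the same fixed total in every group). Just outside it, the 66 cells with a sum of 3 had 1048 CPM, and the cells with a sum of 0 had 85.6 CPM. The rule leaves some S-phase cells out: 129 cells with a sum of 0 (0.690%) carried at least 6 UMIs of the replication list, and 41 of them were C1q cells.

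More UMIs were captured from cycling cells. Their median was 6613 UMIs and 2224 genes, against 1905 UMIs and 830 genes in cells with a sum of 0, a ratio of 3.47 in UMIs. Within a lineage the ratio of median UMIs was 3.26 in Cd3 cells, 1.78 in C1q cells, 1.84 in Epcam/Cldn18 cells and 1.14 in Marco/Fabp1/Ctsk cells. A deeper cell reaches 4 UMIs more easily, and larger cells cannot be told apart from deeper capture. Values at matched depth are therefore given below for some of the lists. The match is partial: matched sum-0 Cd3 cells had a median of 3917 UMIs against 5503.5 in cycling ones. In C1q cells the medians were 5839.5 against 7519.5, in Epcam/Cldn18 cells 7428 against 8450 and in Marco/Fabp1/Ctsk cells 5911.5 against 6375. Scrublet, which looks for cells resembling a mix of 2 others, marked 204 of the 19892 cells (1.03%) and 1 of the 319.

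Cycling cells were found in every lineage, and Cd3, C1q and Marco/Fabp1/Ctsk cells made up most of them. Of the 319, 90 were Cd3 cells (28.2%), 72 C1q cells (22.6%), 64 Marco/Fabp1/Ctsk cells (20.1%), 26 Epcam/Cldn18 cells (8.15%), 11 Cdh5/Cldn5 cells (3.45%) and 9 Cd79a cells (2.82%). A further 33 had no list at the required level (10.3%) and 14 had a mix of lists (4.39%). The share cycling was 3.25% (2.51 to 4.13) of 1968 Marco/Fabp1/Ctsk cells, 3.02% (2.37 to 3.78) of 2387 C1q cells, 2.51% (2.03 to 3.08) of 3579 Cd3 cells and 2.38% (1.56 to 3.47) of 1092 Epcam/Cldn18 cells. At this raw threshold the 4 shares did not differ beyond their counting intervals, and their order changed with the threshold. Depth is not equal between them, and values at equal depth follow below. Cdh5/Cldn5 cells stood at 0.678% (0.339 to 1.21) of 1622 and Cd79a cells at 0.581% (0.266 to 1.10) of 1548. These 2 classes had the lowest shares of the 6 under each alternative threshold, cell filter and rule of assignment.

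**Figure D1:**
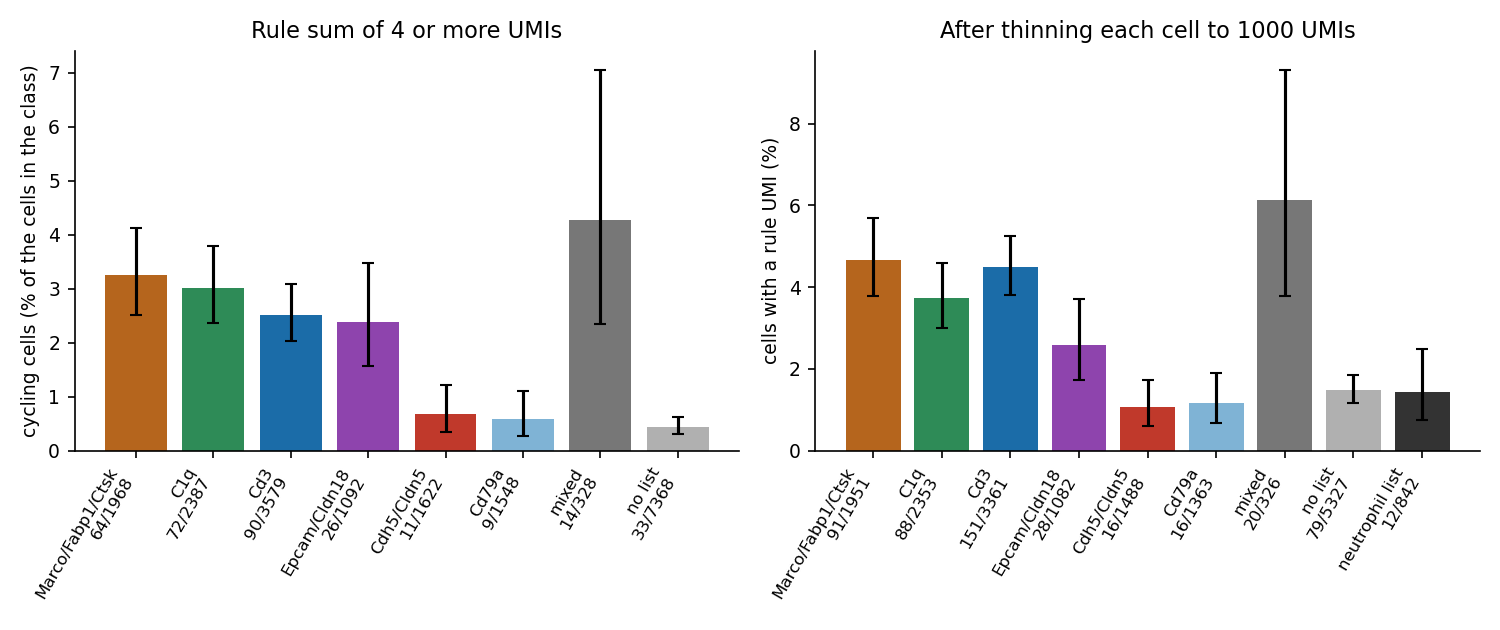
Left, share of each class with a rule sum of 4 or more UMIs. Right, share with at least 1 rule UMI after each cell was thinned to 1000 UMIs, with neutrophil-list cells as a background. Bars are shares in percent and whiskers exact binomial 95% intervals. On the left the Marco/Fabp1/Ctsk, C1q, Cd3 and Epcam/Cldn18 bars lie between 2.38% and 3.25% and the Cdh5/Cldn5 and Cd79a bars under 0.7%.

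Equal depth was reached by thinning cells to 1000 UMIs. At least 1 rule UMI was then found in 91 of 1951 Marco/Fabp1/Ctsk cells (4.66%, 3.77 to 5.70), 151 of 3361 Cd3 cells (4.49%, 3.82 to 5.25), 88 of 2353 C1q cells (3.74%, 3.01 to 4.59) and 28 of 1082 Epcam/Cldn18 cells (2.59%, 1.73 to 3.72). Without thinning the values were 15.5%, 6.76%, 11.02% and 7.60%. At 1000 UMIs the Epcam/Cldn18 interval lay under those of the Cd3 and Marco/Fabp1/Ctsk cells and overlapped that of the C1q cells. At 500 UMIs the Epcam/Cldn18 cells, at 2.01% (1.27 to 3.03), overlapped the Cd3 cells, at 2.57% (2.08 to 3.14), and the Marco/Fabp1/Ctsk cells, at 2.59% (1.94 to 3.39). Mature neutrophils no longer divide, and cells without a lineage that carried the neutrophil list were taken as the nearest background for free RNA, although 4 of these 1912 cells were themselves cycling. In these, 12 of 842 cells had a rule UMI (1.43%, 0.739 to 2.48; 1.05% unthinned, at a median of 921.5 UMIs against 1718 in Cd3 cells). Cd79a cells at 1.17% (0.672 to 1.90) and Cdh5/Cldn5 cells at 1.08% (0.616 to 1.74) were within its interval. At 500 UMIs they stood at 0.581% and 0.678% against 0.366% in the neutrophil-list cells, and at 2000 UMIs at 4.18% and 2.55% against 2.04%. At 2000 UMIs and at least 2 rule UMIs the Cd79a cells stood at 2.87% (1.44 to 5.08). That interval held the values of the Epcam/Cldn18 cells, 2.31%, and the C1q cells, 2.75%. Only 383 of 1548 Cd79a cells reached 2000 UMIs, against 996 of 1092 Epcam/Cldn18 and 2294 of 2387 C1q cells. Median depth was 5130 UMIs in cycling Cd79a cells and 1443 at a sum of 0, so this cut favored cycling cells. Shares at 2000 UMIs are therefore not those of the whole class. The part of free RNA in these shares was not tested. In the cells above the threshold the mitosis list stood at 3379 CPM in the 9 Cd79a cells and at 5641 CPM in the 11 Cdh5/Cldn5 cells, against 104 and 53.8 CPM in the cells of the same class with a sum of 0.

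Mitosis genes were high in the cycling cells of every lineage, which the choice of the cells fixes in part. The list was higher by 5.14 on the log2 scale in Cd3 cells (4172 against 118 CPM), by 5.54 in Marco/Fabp1/Ctsk cells (3318 against 71.2), by 5.21 in C1q cells (3617 against 97.9) and by 5.78 in Epcam/Cldn18 cells (3103 against 56.4). Of its 35 genes, 21 reached 50 CPM in cycling or sum-0 cells of all 4 lineages, and these 21 were over 2-fold higher in all 4 on log2(CPM + 10). Espl1, the protease that cuts sister chromatids apart, reached 50 CPM in no lineage. Ccnb2, a cyclin B, stood at 309 CPM in cycling Marco/Fabp1/Ctsk cells and at 169, 165 and 140 CPM in cycling Cd3, C1q and Epcam/Cldn18 cells, and at most at 4.74 CPM in cells with a sum of 0. Cenpf, a kinetochore protein, lay between 165 and 211 CPM in the 4 lineages, and Prc1, which bundles the spindle midzone, between 76.6 and 258.

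DNA replication genes were higher by 3.08 on the log2 scale in Cd3 cells (2865 against 339 CPM), 3.24 in C1q cells (2072 against 220), 3.23 in Epcam/Cldn18 cells (1501 against 160) and 2.34 in Marco/Fabp1/Ctsk cells (1005 against 198). Rrm2, the limiting subunit for making deoxynucleotides, was at 245 CPM in cycling Cd3 cells and at 107, 83.0 and 53.4 CPM in cycling C1q, Epcam/Cldn18 and Marco/Fabp1/Ctsk cells, with under 2.3 CPM in each class at a sum of 0. Uhrf1, which carries DNA methylation over to the new strand, was at 90.6 CPM in cycling C1q cells, 86.1 in Cd3, 67.9 in Epcam/Cldn18 and 32.5 in Marco/Fabp1/Ctsk cells. Of the 30 replication genes, 4 reached 50 CPM in all 4 lineages, and these were past 2-fold in each: Rrm1, Rrm2, Tyms, which makes thymidylate, and Atad2. Mcm5, of the replicative helicase, was at 150 CPM in cycling Cd3 cells, 108 in C1q, 64.1 in Epcam/Cldn18 and 44.1 in Marco/Fabp1/Ctsk cells. Of 16 condensin and chromatin genes, 12 reached 50 CPM and were past 2-fold in all 4. H2afz, a histone variant, was at 3172 against 639 CPM in Cd3 cells, and Stmn1, which destabilises microtubules, at 1139 against 28.9.

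Read against the background, the counts for these lists are descriptions only, since most of their genes reached the minimum of 50 CPM through the cycling cells. In Cd3 cells 404 of 2833 genes at that minimum were over 2-fold higher in cycling cells (14.3%) and 5.51% over 2-fold lower, on log2(CPM + 10). The mitosis list had 26 of 26 and the replication list 21 of 21 higher. For Marco/Fabp1/Ctsk cells the background was 4.93% higher and 1.57% lower, and the lists had 24 of 24 and 5 of 5. In C1q cells it was 7.87% and 2.19%, with 27 of 27 and 19 of 19. Epcam/Cldn18 cells had 14.6% and 8.23%, with 24 of 24 and 13 of 13. In this class 21 of the 26 cycling cells had no Cldn18 UMI, while 762 of the 1009 cells with a sum of 0 had one. Every comparison of cycling with sum-0 cells in this class therefore sets unlike kinds of cell against each other, as described below.

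**Figure D2:**
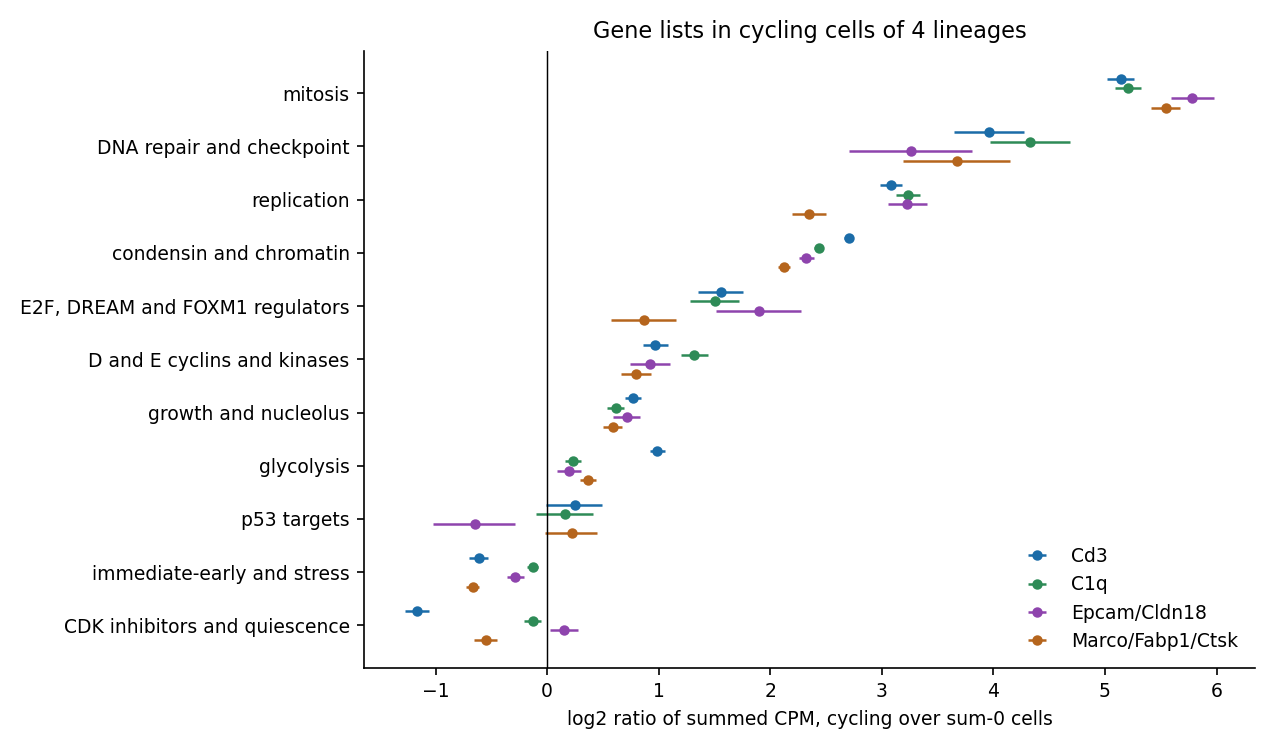
Log2 ratio of summed CPM in cycling over sum-0 cells for 11 gene lists, with exact 95% intervals, in the 4 lineages with at least 20 cycling cells. The mitosis list lies between 5.14 and 5.78 and the replication list between 2.34 and 3.24. The quiescence list lies at -1.16 in Cd3 cells and between -0.55 and 0.15 in the others.

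No gene of the E2F list reached 50 CPM in all 4 lineages. Foxm1, which drives mitosis genes, was at 33.7 CPM in cycling Cd3 cells, 23.2 in Marco/Fabp1/Ctsk, 33.8 in C1q and 41.5 in Epcam/Cldn18 cells, and at most at 1.13 CPM at a sum of 0. Rb1, the retinoblastoma repressor, was past 2-fold in none of the 3 lineages where it reached 50 CPM. The D-type cyclins, which link growth signals to the cycle, were past 2-fold in no lineage: Ccnd3 was at 133 against 118 CPM in Cd3 cells, Ccnd2 at 397 against 384 in Marco/Fabp1/Ctsk cells, and Ccnd1 at 148 against 102 in C1q cells and at 249 against 241 in Epcam/Cldn18 cells. Ccne1, the cyclin of S-phase entry, was at 37.5 against 1.77 CPM in Cd3 cells, under the minimum for a call. Cks1b and Cks2, small partners of the cyclin-dependent kinases, were past it in all 4, with Cks1b at 320 against 11.6 CPM in Cd3 cells. Among 10 growth and nucleolus genes only Ran, a GTPase of nuclear transport and spindle assembly, was past 2-fold in all 4. Cdkn2c, an inhibitor of CDK4 and CDK6, was past 2-fold in 2 lineages, at 61.8 against 8.54 CPM in Cd3 cells. Cdkn1a, the p53-induced inhibitor, was past 2-fold in none. Brca1, which acts in the repair of broken DNA by recombination, was at 52.4 against 0.806 CPM in Cd3 cells, and no DNA repair gene reached 50 CPM in the other 3 lineages. The p53 target list had log2 ratios of 0.25 in Cd3, 0.22 in Marco/Fabp1/Ctsk, 0.16 in C1q and -0.64 in Epcam/Cldn18 cells, and the first 3 intervals included 0. The Epcam/Cldn18 ratio sets mostly cells without Cldn18 against mostly cells with it, and is not one of cycling against resting epithelium.

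Beyond these lists, the genes with the largest mean ratio over the 4 lineages, of 1829 ranked, were led by Hist1h2ap, a replication-dependent histone gene, by Pclaf, a partner of the PCNA clamp, and by Stmn1. Reads of histone genes of such near-identical families can be divided between copies by the counting. Pclaf was at 772 against 2.42 CPM in Cd3 cells, 492 against 1.49 in C1q cells, 434 against 2.30 in Epcam/Cldn18 cells and 376 against 5.25 in Marco/Fabp1/Ctsk cells. At the other end stood several genes that mark a particular cell type: Mgp of stromal cells, Sftpc of alveolar type II cells, Chil3 of alveolar macrophages, and S100a8 and S100a9 of neutrophils. S100a8 and S100a9 were not lower in every lineage, and in Epcam/Cldn18 cells, where cycling and sum-0 cells are unlike kinds, were at 343 against 236 and 528 against 257 CPM. The neutrophil list was at 103 CPM in cycling Cd3 cells against 2205 CPM at a sum of 0, at 40.9 against 363 CPM in C1q cells, at 330 (278 to 389) against 387 CPM in Marco/Fabp1/Ctsk cells and at 939 against 533 CPM in Epcam/Cldn18 cells. The stromal list was at 4.64 against 461 CPM in Marco/Fabp1/Ctsk cells. At matched depth the neutrophil list in Cd3 cells was lower by 6.63 on the log2 scale. Matched-depth values for the other levels are not given here. Ypel3 was over 2-fold lower in all 4 lineages, between 37.7 and 56.9 CPM in cycling cells and between 98.9 and 135 CPM at a sum of 0. Rabac1 was over 2-fold lower in 3, with C1q cells at 107 against 185 CPM.

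Replication genes took a smaller share in cycling Marco/Fabp1/Ctsk cells than in cycling Cd3 cells. Of the UMIs of the replication and mitosis lists together, the replication list took 40.7% (39.1 to 42.3) in cycling Cd3 cells, 36.4% (34.8 to 38.1) in C1q cells, 32.6% (30.0 to 35.3) in Epcam/Cldn18 cells and 23.3% (21.4 to 25.2) in Marco/Fabp1/Ctsk cells, against 34.2% (33.4 to 35.1) in all 319. In the 11 Cdh5/Cldn5 cells it took 16.8% (13.4 to 20.6). These intervals take UMIs as independent, although UMIs of a cell go together, so they are too narrow for differences between cells. The median over single cells with at least 10 such UMIs was 41.5% in Cd3 (quartiles 21.9 and 61.3) and 33.7% in C1q cells (13.7 and 55.4). It was 23.5% in Epcam/Cldn18 (7.22 and 56.4) and 14.7% in Marco/Fabp1/Ctsk cells (10.0 and 21.4). The quartile ranges of Cd3, C1q and Epcam/Cldn18 cells overlapped widely. Replication UMIs outnumbered mitosis UMIs in 32 of 88 Cd3 cells, 24 of 68 C1q cells, 7 of 23 Epcam/Cldn18 cells and 5 of 57 Marco/Fabp1/Ctsk cells. Cells with under 20% numbered 18, 21, 11 and 39. The rule takes cells by genes of G2 phase and mitosis, so these shares describe the cells it found and not the length of a phase. Some of the 2 lists' UMIs can be free RNA.

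**Figure D3:**
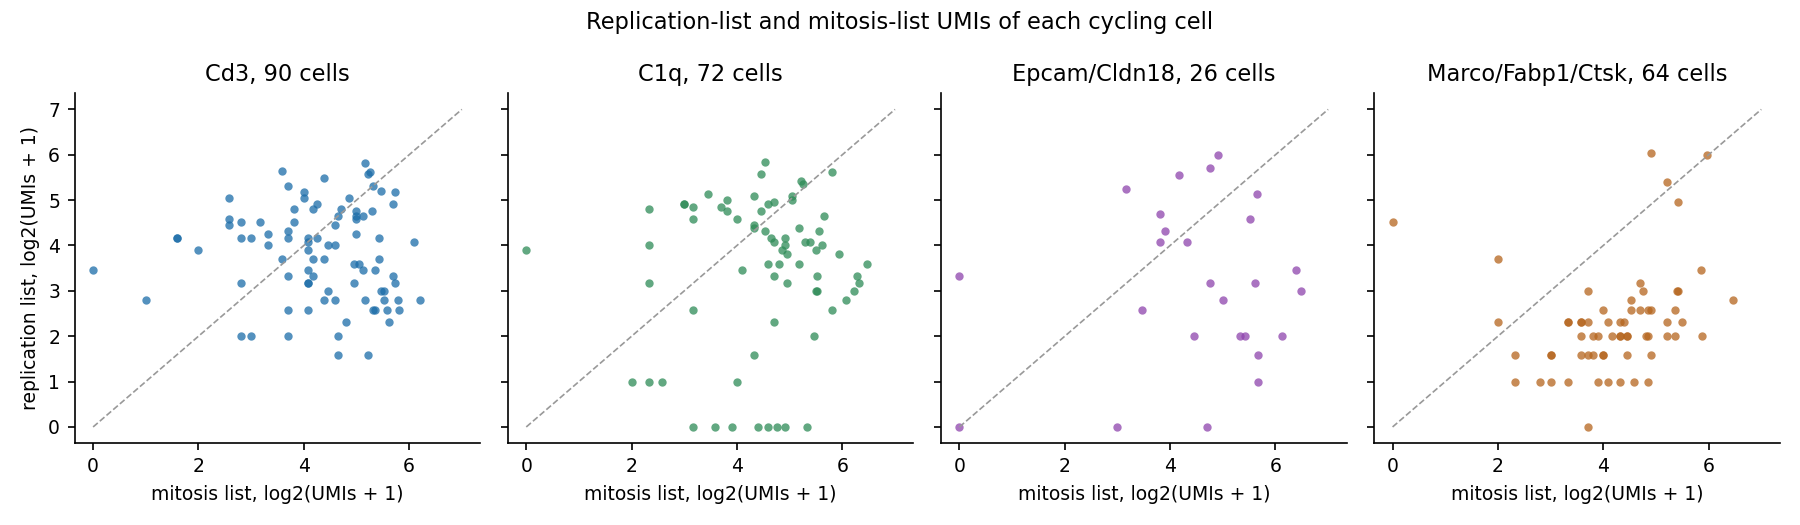
UMIs of the mitosis list (x) and the replication list (y) in each cycling cell, both as log2(UMIs + 1), in 4 lineages. The dashed line marks equal numbers. Marco/Fabp1/Ctsk cells lie mostly under the line and Cd3 cells spread on both sides. Among cells with at least 10 UMIs of both lists together, 5 of 57 and 32 of 88 lie above it.

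Captured UMIs of histone genes also differed between the lineages, and the part of the 3′ capture in this was not tested. Hist1h2ap was at 8740 CPM in cycling Cd3 cells against 56.4 at a sum of 0, at 3386 against 19.6 in C1q cells, at 1697 against 12.7 in Epcam/Cldn18 cells, and at 376 against 8.65 in Marco/Fabp1/Ctsk cells. It was found in 84 of 90 Cd3 cells with a median of 36.5 UMIs, in 55 of 72 C1q cells with a median of 22.5, and in 32 of 64 Marco/Fabp1/Ctsk cells with a median of 0.5. Hist1h2ae, another gene of this family, was at 884, 393, 207 and 51.1 CPM in the same classes in that order of Cd3, C1q, Epcam/Cldn18 and Marco/Fabp1/Ctsk.

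Cycling Cd3 cells were T cells of a particular make-up. The T cell check list (Trac, Trbc2, Cd2, Lck, Cd28, Thy1), not used to assign them, was at 1704 CPM against 1884 at a sum of 0, and none carried 2 UMIs of another lineage's list. Foxp3, the factor that defines regulatory T cells, was at 91.8 CPM against 41.4, higher by 1.15 on the log2 scale (0.68 to 1.59). Ikzf2 (Helios) was at 541 against 254 CPM, Ctla4 at 395 against 192 and Il2ra, the IL-2 receptor chain, at 133 against 80.3. The 4 together were higher by 1.03 (0.91 to 1.16), and 2 of them, Ctla4 and Ikzf2, were past 2-fold on log2(CPM + 10). CD8 T cell genes went the other way: Cd8b1 was at 26.2 against 182 CPM and Cd8a at 9.36 against 50.6, lower together by 2.71 on the log2 scale, while Cd4 was at 82.4 against 92.4. Trdc, the constant chain of gamma-delta T cells, was at 22.5 against 102 CPM.

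Sorted by these genes, 28 of 216 Cd3 cells with a Foxp3 UMI were cycling (12.96%, 8.79 to 18.2). Of cells with a Cd8a or Cd8b1 UMI and no Foxp3, 7 of 607 were (1.15%, 0.465 to 2.36), and of cells with Cd4 alone, 21 of 462 (4.55%, 2.84 to 6.86). Trdc or Tcrg-C1 cells had 8 of 404 (1.98%) and cells with none of these genes 26 of 1890 (1.38%). The split by Foxp3 was chosen after values were seen. Deeper cells show more of every gene, and after thinning to 1000 UMIs Foxp3 was found in 10 of 90 cycling cells (11.1%, 5.46 to 19.5) and 93 of 3124 cells with a sum of 0 (2.98%, 2.41 to 3.63; unthinned 31.1% and 4.76%). Cd8b1 was then found in 1 of 90 (1.11%, 0.0281 to 6.04) and 358 of 3124 (11.5%, 10.4 to 12.6). Il2ra, at 6.67% and 6.56%, and Cd4, at 8.89% and 8.71%, did not differ at equal depth beyond their intervals.

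Genes of resting and naive T cells were low. Il7r, the receptor for the survival cytokine IL-7, was at 176 CPM in cycling cells against 848, and after thinning was found in 14 of 90 cells (15.6%, 8.77 to 24.7) against 1666 of 3124 (53.3%, 51.6 to 55.1). Lef1, a factor of naive T cells, was at 22.5 against 155 CPM, Ccr7, the lymph node homing receptor, at 43.1 against 190, and S1pr1, needed to leave lymph nodes, at 74.9 against 227. The naive list, which also holds Tcf7, was lower by 2.00 on the log2 scale (-2.19 to -1.82), and all 6 genes were over 2-fold lower. Against 197 cells of matched depth it was lower by 1.39. Btg1, which slows growth, was at 399 against 1448 CPM, Btg2 at 268 against 630 and Klf2, a factor of quiescence, at 199 against 408. Glycolysis genes were higher by 0.99 (0.60 at matched depth), with Gapdh at 998 against 421 CPM, Pkm at 384 against 171 and Ldha, which makes lactate, at 682 against 337. Myc was at 7.49 against 36.0 CPM. The exhaustion receptor Pdcd1 (PD-1) was at 103 against 44.3 CPM, and Havcr2, Lag3 and the killing enzyme Gzmb were under 15 CPM in cycling cells. Gzmb was found in 0 of the 90 thinned cycling cells, with an exact upper limit of 4.02%, and in 37 of 3124 (1.18%).

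**Figure D4:**
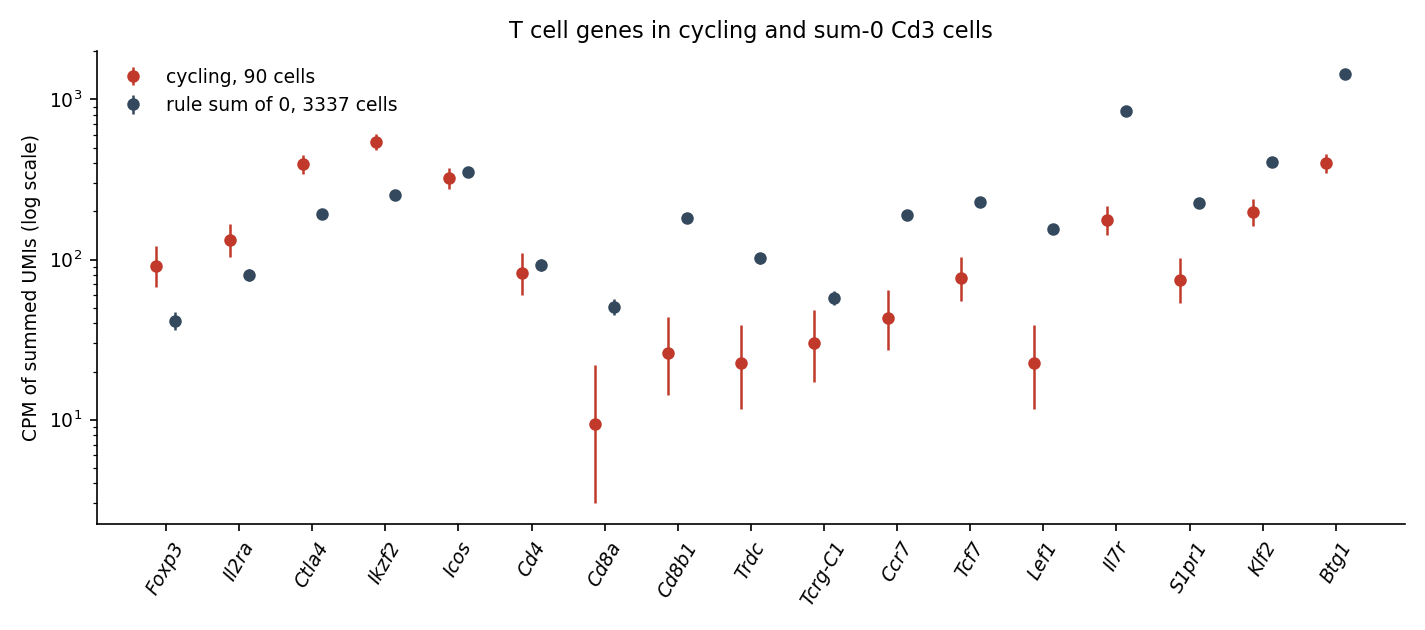
CPM (log axis) of T cell genes summed over 90 cycling and 3337 sum-0 Cd3 cells, with exact Poisson 95% intervals. Foxp3, Ctla4 and Ikzf2 are higher in cycling cells, and Cd8b1, Lef1, Il7r and Btg1 lower, with Il7r at 176 against 848 CPM.

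Cycling Marco/Fabp1/Ctsk cells kept most alveolar macrophage genes near the level of their non-cycling counterparts. The alveolar macrophage check list was at 23578 against 29465 CPM, lower by 0.32 on the log2 scale, and none of its 5 genes at 50 CPM or more was past 2-fold. Chil3, a secreted chitinase-like protein, was at 21149 against 26852 CPM and found in all 64 thinned cycling cells. Lpl (lipoprotein lipase) was at 620 against 644 CPM, Ear2 at 994 against 1028 and Plet1 at 762 against 859. Siglecf, the usual surface marker, was low in both, at 32.5 against 64.9 CPM. After thinning Siglecf was found in 0 of 64 cycling cells (upper limit 5.60%) and 116 of 1647 others (7.04%, 5.85 to 8.39). The interstitial macrophage check list was lower by 0.64 on the log2 scale, at 687 against 1072 CPM, and Lyz2 was at 12844 against 19154. Marco, a scavenger receptor used to assign these cells, was higher, at 713 against 306 CPM, and Spp1 (osteopontin) was at 780 against 424. The TdTomato reporter was found in 52 of 64 thinned cycling cells (81.3%, 69.5 to 89.9) and 1365 of 1647 others (82.9%, 81.0 to 84.7). MHC class II genes were at 894 against 1429 CPM. The cell-surface genes Cd8a and Cd8b1 had 13 UMIs, in 2 cells each, and 5 of the 64 carried at least 2 UMIs of another lineage's list, against 44 of 1663.

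Among the genes that chose the cells, detection differed by class, which is given as a description. Top2a was found in 21 of the 64 (32.8%, 21.6 to 45.7), at a median of 0 UMIs, whereas it was found in 81 of 90 cycling Cd3 cells (interval 81.9% to 95.3%), 63 of 72 C1q cells (87.5%, 77.6 to 94.1) and 21 of 26 Epcam/Cldn18 cells (80.8%, 60.6 to 93.4). Mki67 was found in 63 of the 64 and Birc5 in 58. Of the lists that did not choose the cells, the mitosis list was at 3318 CPM in cycling Marco/Fabp1/Ctsk against 4172 in cycling Cd3 cells. The replication list was at 1005 against 2865 CPM and the condensin and chromatin list at 7776 against 14901, with single genes going both ways. Tpx2, a spindle assembly factor, was at 163 against 91.8 CPM, and Kif20a, a kinesin of cell division, at 109 against 28.1. Nusap1, which bundles spindle microtubules, was at 65.0 against 251 CPM, and Ncaph, a condensin subunit, at 11.6 against 89.9. The rule sum of the Marco/Fabp1/Ctsk cells had a median of 7.5, against 12 in Cd3 and 11.5 in C1q cells. Their share was 1.63% at a sum of at least 8, under the 2.05% of C1q cells. Racgap1 and Aspm, which act in cell division and at spindle poles, were among the 5 genes with the largest ratio, at 149 against 2.68 CPM and 99.8 against 0.

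Most cycling C1q cells had an Epcam UMI, 53 of 72 against 929 of 2124 at a sum of 0. After thinning, Epcam was found in 25 of 72 (34.7%, 23.9 to 46.9) and 485 of 2090 (23.2%, 21.4 to 25.1), so these intervals overlap. Few had an Apoe UMI, 9 of 72 against 847 of 2124. At least 2 UMIs of another lineage's list were carried by 48 of the 72 and by 781 of the 2124. Apoe, a lipid carrier abundant in many tissue macrophages, was at 146 CPM against 4332 at a sum of 0, and after thinning was found in 5 of 72 cycling cells (6.94%, 2.29 to 15.5) against 735 of 2090 (35.2%, 33.1 to 37.3). No UMI of Retnla, Cxcl13 or Ccl8, secreted by subsets of macrophages, was found in the 72 cells, which allows up to 5.33 CPM each, while cells with a sum of 0 had 415, 189 and 151 CPM. Ms4a7 was at 71.1 against 413 CPM and Trem2, a lipid receptor, at 44.4 against 152. The interstitial macrophage check list was at 844 against 5916 CPM, lower by 2.81 on the log2 scale (1.45 at matched depth). MHC class II genes were at 48669 against 55246 CPM, Spp1 at 90.6 against 96.9 and Ccr2 at 236 against 262.

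By Epcam, an adhesion protein of epithelium that some dendritic cells carry, 44 of 842 C1q cells with at least 2 Epcam UMIs were cycling (5.23%, 3.82 to 6.95), against 19 of 1299 with none (1.46%, 0.883 to 2.27). By Apoe it was 66 of 1581 cells with 0 or 1 UMI (4.17%, 3.24 to 5.28) and 3 of 645 with 10 or more (0.465%, 0.0960 to 1.35). These splits were chosen after the data were seen. At 1000 UMIs a rule UMI was found in 50 of 842 (5.94%, 4.44 to 7.75) and 41 of 1267 (3.24%, 2.33 to 4.36) by Epcam, and in 5.72% and 2.50% by Apoe. Median depth was 4932 UMIs with Epcam and 3813 without. In C1q cells with 0 Epcam UMIs the interstitial check list was lower by 2.50, at 1918 CPM in 19 cycling against 10879 in 1195 sum-0 cells. Among the Epcam cells alone the check list was lower by 0.63, at 448 against 692 CPM. Those with a sum of 0 had Ccl17, a chemokine of dendritic cells, at 3789 CPM and Plet1 at 550, against 352 and 60.1 CPM in C1q cells without Epcam, and Cdh1 (E-cadherin) at 227 against 25.4. In the 44 cycling ones Ccl17 was at 2828 CPM, Plet1 at 519 and Cdh1 at 237. The epithelial gene Nkx2-1 had 0 UMIs in them, which allows up to 8.19 CPM.

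Most cycling cells of the Epcam/Cldn18 class went against its label. Only 5 of its 26 cycling cells carried Cldn18, a claudin of lung epithelium. The other 21 had the epithelial check list (Sftpc, Sftpb, Krt18, Krt8, Cdh1, Nkx2-1) at 356 CPM, with 0 to 11 UMIs a cell, against 94566 CPM and 428 to 3875 UMIs a cell in the 5. TdTomato gave 7 UMIs in the 21 and 44 to 147 UMIs in each of the 5. Ptprc (CD45), of blood cells, was found in 18 of the 21, MHC class II genes were at 42915 CPM, and Ccl17, Plet1 and the lectin Mgl2 at 2341, 734 and 952 CPM. The share cycling was 6.89% (4.31 to 10.3) of the 305 cells of the class without Cldn18 and 0.635% (0.207 to 1.48) of the 787 with it. Differences of the whole class between cycling cells and a sum of 0 thus mix both kinds. Scgb1a1, of club cells, was at 3.77 against 4329 CPM and the transitional gene Krt19 at 18.9 against 233. MHC class II genes had a log2 ratio of 1.11 over the whole class and of -0.06 in cells without Cldn18, and the epithelial list had one of -0.12 in cells with it. Igkc, at 5377 CPM, came from a single cell for 1416 of its 1426 UMIs.

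The 5 cycling Cldn18 cells can be given one by one. Their rule sums were 4, 24, 6, 5 and 5, with totals of 7310, 7533, 10443, 11196 and 40755 UMIs. Mitosis-list UMIs numbered 7, 69, 26, 21 and 0, and replication-list UMIs 0, 3, 8, 3 and 9, in the same order of cells. The deepest cell passed the rule with no mitosis-list UMI. The other 4 had both a passing sum and mitosis genes. Stk11, the gene of Lkb1, had 4 UMIs in the 26 cells (15.1 CPM, against 24.0 at a sum of 0), too few to compare.

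**Figure D5:**
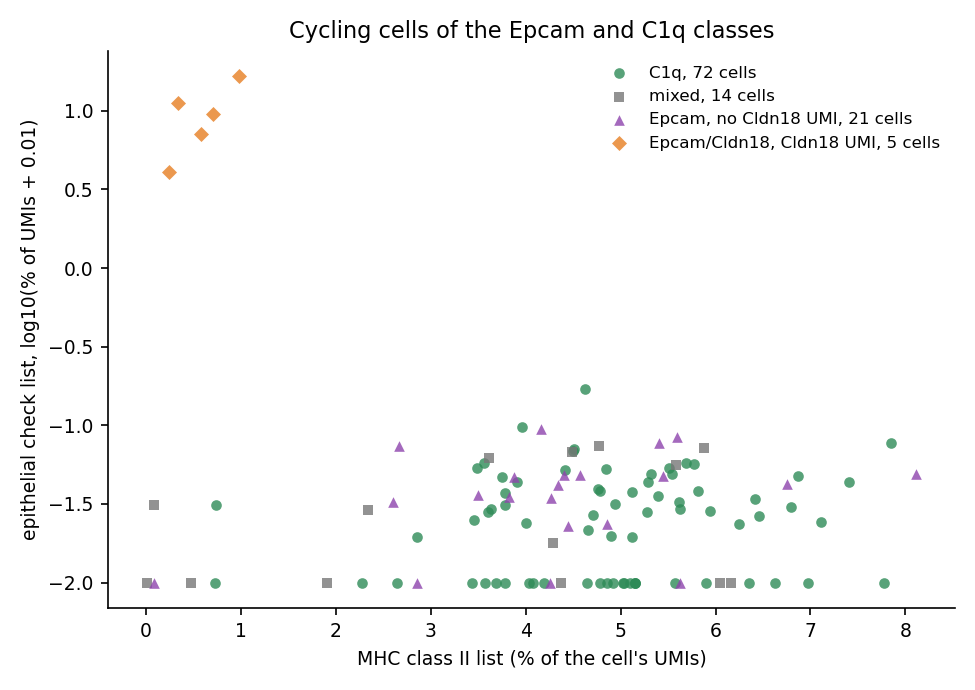
Each cycling cell of the C1q, mixed and Epcam/Cldn18 classes by its UMIs in the MHC class II list (x, percent of the cell's UMIs) and the epithelial check list (y, log10 of percent + 0.01). The 5 Cldn18 cells lie at the upper left, each with under 1% in MHC class II genes, and of the 21 cells with Epcam and no Cldn18, 1 lies at 0.0912% and the others between 2.60% and 8.11%, with C1q cells between 0.725% and 7.85%.

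In the mixed class, 10 of the 14 cycling cells had the C1q and Epcam/Cldn18 lists, the pair held by 199 of all 328 mixed cells. Their Ccl17 was at 3446 CPM, Plet1 at 878 and Cd74, the MHC class II chaperone, at 22656. Over the C1q, Epcam/Cldn18 and mixed C1q classes, 76 of 1339 cells with at least 2 Epcam UMIs and no Cldn18 were cycling (5.68%, 4.50 to 7.05), or 23.8% of all cycling cells. The 1339 were among 19892 kept cells. This grouping was also made after the data were seen. Both its Epcam minimum and the cycling rule count raw UMIs, which favors deeper cells, and its share at equal depth was not taken. Flt3, of dendritic cells, had 0 UMIs in the 44 C1q cells with Epcam, 2 in the mixed cells and 11 in the Epcam cells without Cldn18.

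The 33 cycling cells without a lineage held several kinds. By the lists for other cells, 5 carried the plasma cell list, of 215 such cells (2.33%, 0.759 to 5.34), 4 the neutrophil list, of 1912 (0.209%, 0.0570 to 0.535), 4 the monocyte list, of 758 (0.528%), and 2 the dendritic list, of 148 (1.35%). The NK, stromal and mast or basophil lists had 1 cell each, 4 cells were mixed and 11 had no list. Single cells set the largest ratios. Camp, a granule protein of immature neutrophils, was at 5963 against 87.9 CPM and came from 2 cells. Prss34 and Mcpt8, proteases of basophils, at 1199 and 1320 CPM, came from 1 cell each, as did Ighg1 and Ighg2c, antibody heavy chains. Jchain, which joins antibody units, was found in 5. Retnlg, of mature neutrophils, was at 29.3 against 1332 CPM.

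Few B cells and endothelial cells cycled. In the 9 Cd79a cells the B cell check list was at 1970 against 3374 CPM, and Mzb1 and Xbp1, of antibody-secreting cells, at 1528 against 421 and 255 against 95.1. A single cell gave 56.7% of the Mzb1 UMIs. In the 11 Cdh5/Cldn5 cells the endothelial check list was at 3643 against 4797 CPM, and Kdr, the VEGF receptor, at 446 (299 to 640) against 433. Gpihbp1, of capillaries, was at 799 (597 to 1048) against 1400 CPM and Vwf, of larger vessels, at 46.1 (9.51 to 135) against 340. The capillary genes Car4 and Aplnr, at 261 and 108 CPM, did not differ from 273 and 88.1 CPM beyond their intervals.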

How the data were processed

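Viable cells of lung tumors from 4 mice were profiled with 10x 3′ v3 chemistry. Per the study's methods and the submitters' processing notes, the authors ran Cell Ranger 3.0.2 on the mm10 genome, to which GFP and TdTomato had been added, and deposited raw UMI counts of all mice as 1 matrix. Kept cells had at least 200 genes and a mitochondrial share at or under the 98th percentile (13.4%). This removed 52 and 407 cells and left a median of 1995 UMIs (lowest 500). No cap on genes was set, doublets were not removed, and tdTomato cells outside the epithelium, which the study left out, were kept.

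UMIs were summed per class and scaled to CPM (counts per 1e6 UMIs), with exact Poisson intervals, exact Clopper-Pearson intervals for shares and exact conditional intervals for ratios. There is 1 sample, so no test was run. A gene was called past 2-fold on log2(CPM + 10) among genes at 50 CPM or more in either group. For a gene without any UMI, the limit in CPM is that of 3 UMIs. For shares of cells, each cell was thinned to 1000 UMIs and shallower cells left out. Matched depth means sum-0 cells within the 10th to 90th percentile of UMIs of the cycling cells of that lineage. Named genes are the rule genes, the members of the lists, the 10 genes each way with the largest mean ratio over the 4 lineages with at least 20 cycling cells, and the 5 each way within a lineage or without one. Tpx2, Kif20a, Nusap1 and Ncaph as examples, Mgl2, Ptprc, Ccl17, Plet1 outside macrophages, Hist1h2ap by cell, and the splits by Epcam, Apoe, Cldn18 and Foxp3 were chosen after their values were seen. An allele that all 4 mice carried and some genes of the lists are not reported here by name. Members and lists were chosen with earlier results of these data known.

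Alternatives changed the rule, the filters, the lineage margins, thinning and doublets. In data simulated for the Cd3 comparison over 15533 genes, 199 of 200 genes changed 4-fold were recovered. The 200 were drawn from 2171 genes at 50 CPM or more in sum-0 cells. Only counting error was simulated, without variation between cells or mice, so this checks the calculation and not the results. Python 3.11.15, numpy 2.4.6, scipy 1.17.1, pandas 2.3.3, matplotlib 3.10.9 and scanpy 1.11.5 (Scrublet) were used. Promoters are from RefSeq (GRCm38.p6). Motifs were searched as plain letters on both strands.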

Additional observations from a re-analysis of the deposited data

How the results depend on the processing

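With a rule sum of at least 2, 3, 6 or 8 UMIs the share of all cells cycling was 2.51%, 1.94%, 1.25% or 1.03%. In Marco/Fabp1/Ctsk cells it was 5.996%, 4.17%, 2.08% or 1.63%. Cd3 cells had 3.55% at 2, 2.01% at 6 and 1.76% at 8, C1q cells 4.65% at 2 and 2.05% at 8, and Epcam/Cldn18 cells 4.03% at 2. Without Mki67, Top2a or Birc5 the share over all cells was 1.22%, 1.39% or 1.36%, and that of Marco/Fabp1/Ctsk cells was 1.68% without Mki67 and 2.24% without Birc5. A minimum of 500 genes gave 1.89%. A cap on genes gave 1.31% in all cells, 2.16% in C1q and 1.37% in Epcam/Cldn18 cells. Cd3 cells assigned from 1 or 3 UMIs had 1.94% or 3.71%, and C1q cells with other lists at 0 or 1 UMI had 1.64%. By Epcam (at least 2 or 0) C1q cells had 5.23% and 1.46%, by Apoe (0 or 1, or at least 10) 4.17% and 0.465%, and Epcam/Cldn18 cells had 0.635% with and 6.89% without Cldn18. The share of all cells with a rule UMI was 3.08% at 1000 UMIs, 1.73% at 500, 6.45% at 2000, 5.95% unthinned and 1.05% for at least 2 rule UMIs.

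At matched depth the log2 ratios in Cd3 cells were 0.72 for the regulatory, -1.39 for the naive, -1.05 for the quiescence and 0.60 for the glycolysis list. In C1q cells the interstitial list was at -1.45, and in Epcam/Cldn18 cells the epithelial list was at -1.45 and MHC class II at 0.86. With each cell weighted equally the alveolar macrophage list was at -0.46, the epithelial at -1.95 and MHC class II at 1.37. At a sum of at least 3 or 8 the CD8 list was at -1.59 or -3.96, the alveolar macrophage list at -0.43 or -0.14, the interstitial at -2.37 or -2.96, the epithelial at -1.36 or -4.48 and MHC class II at 0.98 or 1.45. With other lists at 0 or 1 UMI the last 3 were at -2.44, -2.31 and 1.39. The cytotoxic list turned from -1.27 to 0.015 at a sum of at least 3. C1q cells with at least 2 Epcam UMIs had the interstitial list at -0.63, and those with 0 had it at -2.50. Within Foxp3 cells the regulatory list turned to -0.85, the naive list was at -1.35 and glycolysis at 0.59. With a Cldn18 UMI the epithelial list was at -0.12, MHC class II at 0.38 and the E2F list turned from 1.90 to -0.28. Without it the epithelial list was at -4.38 and MHC class II turned to -0.058. The cause was not tested. Under alternatives, 477 log2 ratios stayed inside the interval of the main value, 158 did not, and 4 that were at least 2-fold changed sign. Smaller ratios that changed sign are counted among the 477 or the 158.

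The replication share was 37.3%, 44.0% and 26.8% in all, Cd3 and Marco/Fabp1/Ctsk cells at a sum of at least 2, 31.3% and 36.8% in all and Cd3 cells at 8, and 32.6% and 37.9% without Mki67. The median cell had 27.4% over all and 14.7% in Marco/Fabp1/Ctsk cells. No paired analysis was possible because cells carry no sample or replicate number. Depth limits genes at a few UMIs.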

Other observations

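Immediate-early and stress genes, which dissociation can raise, were lower in cycling Cd3 cells by 0.61 on the log2 scale and in cycling Marco/Fabp1/Ctsk cells by 0.67. Junb was at 801 against 1639.6 CPM in Marco/Fabp1/Ctsk cells. In C1q and Epcam/Cldn18 cells the list had log2 ratios of -0.13 and -0.28, and in the 9 Cd79a cells it was at 560 against 3072 CPM. Median mitochondrial shares were 4.41% of UMIs in the 319 cells and 4.72% in cells with a sum of 0. In Cd79a cells they were 4.40% and 7.17%.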
